A study of Spinacia oleracea with 6 samples.

Results

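The nuclear genes of plastocyanin, of an ATP synthase subunit and of the ferredoxin-thioredoxin chain, which belong to photosynthetic electron transport and the redox chain that leaves it, were followed in spinach, Spinacia oleracea, grown under heat or under a cooler control regime. The 6 genes were chosen by their NCBI Gene numbers among the 32450 genes of the deposited tables. They are PETE (gene 110799213), ATPG (gene 110788390), FTRV (gene 110781961), FTRC (gene 110802350), B1 (gene 110798481) and Trx-M (gene 110782047), and all 6 were detected in every library and passed the filter on low counts. The heat group comprised 3 libraries, with a day temperature of 35 °C and a night temperature of 25 °C. The control group comprised 3 libraries, with 20 °C in the day and 15 °C at night. Both regimes ran for 4 days, in an illumination incubator. The labels give no tissue, cultivar or plant age, and do not say whether replicate libraries are separate plants or pots. The p-values therefore reflect the spread between libraries alone, and this spread could be technical.

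In the chloroplast, plastocyanin carries electrons from the cytochrome b6f complex to photosystem I, and the ATP synthase uses the proton gradient built by that transport to make ATP. Part of the electrons that reach ferredoxin pass to ferredoxin-thioredoxin reductase, a heterodimer of a catalytic chain with an iron-sulphur cluster and a variable chain. The reductase reduces thioredoxins, which switch on Calvin-Benson cycle enzymes in the light by reducing their disulphides. PETE encodes plastocyanin. ATPG, which the reference gene table also lists as ATPF2, encodes the nuclear subunit b′ of the membrane part of the ATP synthase. FTRV, also listed as FTR-A, FTR-V and ftrB, encodes the variable chain. FTRC carries the names FTR-B, FTR-C and B2, and B1 carries FTR-B and FTR-C as well, so both were listed under the names of the catalytic chain. Trx-M encodes a thioredoxin of the m type.

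Total counts were between 42.3 and 48 M in the heat libraries and between 48.4 and 56.8 M in the control libraries. The 10 most abundant genes took 8.04% to 9.62% of the counts in heat and 12.2% to 16.1% in control. The scaling of libraries shifted the fold changes: under TMM scaling the 20145 tested genes had a median log2 fold change of 0.01, and under library size alone it was 0.47. The counts of the 6 genes in a library ran from 289 to 44988 reads, and at the lowest of these counting error alone (1 SD) was 5.88% of the value.

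In heat 4 of the 6 genes fell, FTRV rose, and B1 did not pass the test. The 4 genes that fell were PETE, ATPG, FTRC and Trx-M, which decreased between 3.29-fold and 6.17-fold. At an adjusted p below 0.05 (quasi-likelihood test of edgeR, Benjamini-Hochberg over all tested genes), 13.6% of all tested genes were lower and 11.6% higher. The same 4 genes were lower and FTRV higher under library size alone, where 7.3% of all genes were lower and 31.2% higher. In CPM the heat and control libraries did not overlap for any of the 6 genes, 5 being lower and 1 higher, as also held for 22.3% (lower) and 22.9% (higher) of all tested genes. The genes with a reference name were lower far more often: of the other 119 that were tested, 69 (58%) were lower and 2 (1.68%) higher, with a median log2 fold change of -0.82. Levels below are CPM, the reads of a gene relative to the TMM-scaled size of its library, unless FPKM is named. In RNA of a whole sample, fewer cells of a type and less RNA per cell cannot be told apart.

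**Figure D1:**
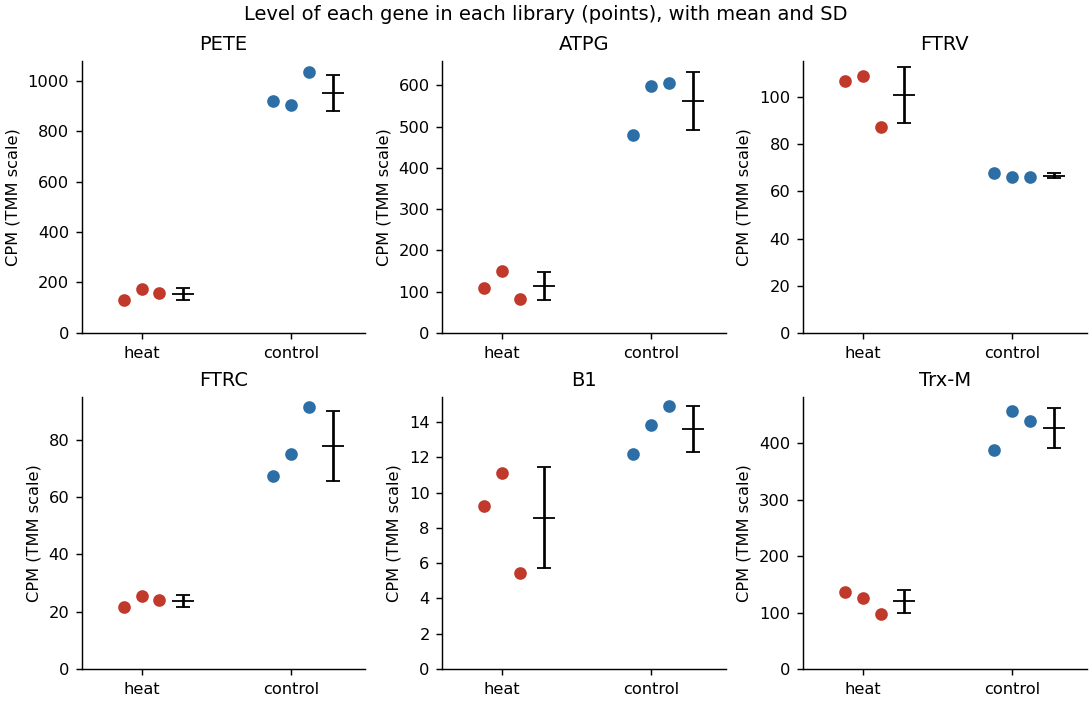
Level of each of the 6 genes in CPM on the TMM scale (linear axes from 0) in the 3 heat libraries (red) and the 3 control libraries (blue), with the mean and SD beside the points. All heat points lie below all control points for PETE, ATPG, FTRC, B1 and Trx-M, and above them for FTRV.

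PETE, plastocyanin, had the greatest fall of the 6. It stood at 130, 173 and 160 CPM in heat libraries 1 to 3, against 919, 902 and 1033 CPM in control libraries 1 to 3. The groups were far apart, with the highest heat library well under the lowest control library. The log2 fold change was -2.62 (SE 0.19, edgeR adjusted p = 0.000448), and 2.63% of all tested genes had a lower one. By FPKM, which also divides by gene length, PETE ranked between 347 and 500 of 20145 tested genes in heat and between 79 and 87 in control. Its share of all counted reads was 0.0181% ± 0.00272 in heat and 0.0808% ± 0.00299 in control (SD, n = 3 each).

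ATPG, of the ATP synthase, fell as well. It stood at 109, 150 and 81.7 CPM in the heat libraries, against 480, 598 and 605 CPM in the control libraries. The heat libraries varied among themselves more than for PETE, with a coefficient of variation of 30.4% in heat and 12.5% in control, but no library of one group reached the other. The log2 fold change was -2.30 (SE 0.26, edgeR adjusted p = 0.00161). Its FPKM rank was between 598 and 898 in heat and between 146 and 182 in control.

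Of the reductase genes, FTRV was the one that rose. The variable chain gene had 107, 109 and 87.3 CPM in heat, against 67.8, 66.2 and 66.0 CPM in control. Heat library 3 was the lowest of its group and still above every control library, and the control libraries differed by little (coefficient of variation 1.46% in control, against 11.8% in heat). The log2 fold change was 0.60 (SE 0.14, edgeR adjusted p = 0.0216), a 1.52-fold rise, and 78.8% of all tested genes had a lower value. The call was kept without heat library 2 (adjusted p = 0.0484) or heat library 3 (adjusted p = 0.0199) and lost without any of the other 4: the adjusted p was 0.0511 without control library 1, 0.0995 without control library 2, 0.0612 without control library 3 and 0.0808 without heat library 1, with log2 fold changes from 0.56 to 0.62 in these 4 fits. Under library size alone the log2 fold change of FTRV was 1.06 (SE 0.15, adjusted p = 0.00259).

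FTRC, a catalytic chain gene, was lower in the same heat libraries. It had 21.5, 25.6 and 24.0 CPM in heat, against 67.4, 75.0 and 91.4 CPM in control. The heat libraries lay close together and each was below every control library. The log2 fold change was -1.72 (SE 0.16, edgeR adjusted p = 0.000964). By FPKM rank, FTRC stood between 3392 and 3951 in heat and between 1115 and 1333 in control, while FTRV stood between 706 and 794 in heat and between 1294 and 1488 in control.

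B1, the other gene listed with the catalytic chain names, was the least abundant of the 6. It had 512, 544 and 289 reads in heat libraries 1 to 3, against 599, 677 and 560 in control libraries 1 to 3, or 9.22, 11.1 and 5.44 CPM in heat and 12.2, 13.8 and 14.9 CPM in control. On this scale the groups did not overlap, and heat library 3 lay apart at the low end. The log2 fold change was -0.67 (SE 0.28, edgeR adjusted p = 0.119). It was -0.42 without heat library 3 and -0.22 under library size alone (adjusted p = 0.178 and 0.513). In deposited FPKM, which are scaled by library totals, the groups overlapped, at 12.1, 14.0 and 7.72 in heat against 12.7, 13.5 and 13.1 in control.

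Trx-M, a thioredoxin that receives electrons from the reductase, fell. It stood at 136, 126 and 97.1 CPM in heat and at 388, 457 and 439 CPM in control. The log2 fold change was -1.84 (SE 0.18, edgeR adjusted p = 0.00112). Every heat library was below every control library, and heat library 3 was the lowest, as it was for ATPG, FTRV and B1 but not for PETE or FTRC.

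**Figure D2:**
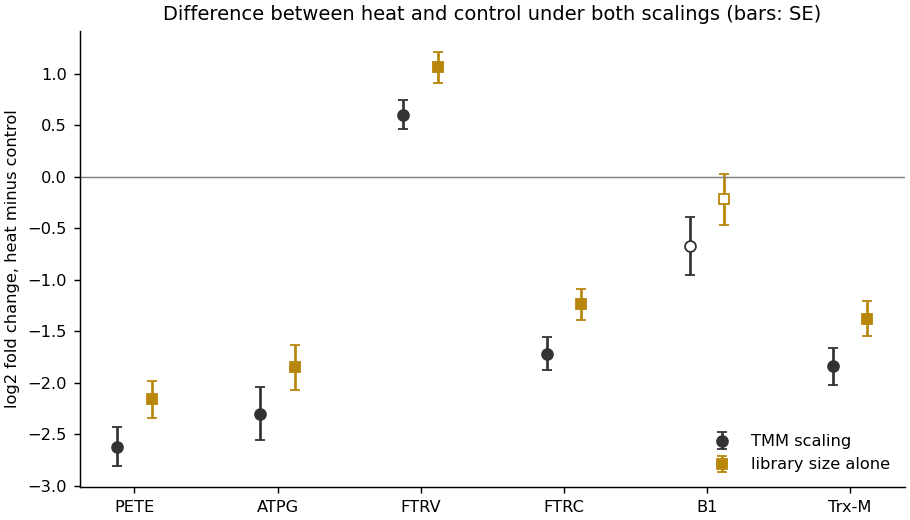
Log2 fold change of each gene, heat minus control, from edgeR's quasi-likelihood fit under TMM scaling (dark circles) and under library size alone (gold squares), with SE as bars and open symbols where the adjusted p was at least 0.05. Library size alone lifts all 6 values, FTRV to 1.06 and B1 to -0.22, and no sign turns.

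The order of the 6 genes by level differed between the regimes. Levels of different genes are compared here in FPKM. In heat PETE had the highest mean, at 257 ± 38.6 FPKM, followed by ATPG at 154 ± 38.5, FTRV at 146 ± 9.44 and Trx-M at 145 ± 18.1 (SD, n = 3). The ranges of ATPG, FTRV and Trx-M overlapped, so these 3 genes could not be ordered in heat. FTRC followed at 33.5 ± 3.22 FPKM and B1 at 11.3 ± 3.20 FPKM, each apart from its neighbours. In control PETE had 1148 ± 42.5 FPKM, ATPG 557 ± 46.4 and Trx-M 376 ± 29.1, and each of these was apart from the next. FTRC had 79.2 ± 5.82 FPKM and FTRV 70.1 ± 6.57 FPKM in control, with overlapping ranges, and B1 had 13.1 ± 0.415 FPKM. FTRV thus stood beside Trx-M and ATPG in heat, and beside FTRC in control. The span from the most to the least abundant of the 6, PETE over B1, was 17.7-fold to 36.9-fold in the heat libraries and 82.3-fold to 94.3-fold in the control libraries.

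The ratio of the reductase chains was taken within each library, so that the scaling of libraries cancels. FTRV over FTRC, in FPKM, was 5.12, 4.35 and 3.73 in heat libraries 1 to 3, against 1.03, 0.905 and 0.740 in control libraries 1 to 3. The variable chain transcript was several-fold above FTRC in every heat library, while in control it was above FTRC in 1 library and below it in the other 2. The log2 ratio averaged 2.12 ± 0.23 in heat and -0.18 ± 0.24 in control (SD, n = 3 each), a difference of 2.30 or 4.94-fold (exact two-sided permutation p = 0.1, the smallest that 3 libraries against 3 allow). Leaving out any single library gave differences between 2.17 and 2.42.

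With B1 added to FTRC, the variable chain was still the higher one in heat. FTRC and B1 together had 42, 48.2 and 43.9 FPKM in heat, against 86.7, 91.5 and 98.6 FPKM in control. FTRV over this sum was 3.65, 3.09 and 3.07 in heat and 0.881, 0.772 and 0.641 in control. The log2 difference was 2.10, and leaving out single libraries gave 1.98 to 2.21 (exact permutation p = 0.1 with all libraries). Adding B1, a choice made after the gene table was read, left the groups apart and the difference of similar size. B1 was the smaller part of the sum in every library, so its addition could shift the ratio only a little.

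Within the catalytic chain genes the balance also differed. FTRC made up 71.3%, 71.0% and 82.4% of their summed FPKM in heat libraries 1 to 3, against 85.4%, 85.3% and 86.7% in control libraries 1 to 3. Heat library 3, where B1 was low, lay nearest to control. FTRC over B1 was 2.48, 2.45 and 4.69 in heat and 5.85, 5.79 and 6.53 in control, a log2 difference of -0.99 (SE 0.31, exact permutation p = 0.1), or -1.29 without heat library 3. The sources used here do not say how reads that match both genes were counted, and a split of shared reads between FTRC and B1 was not tested.

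**Figure D3:**
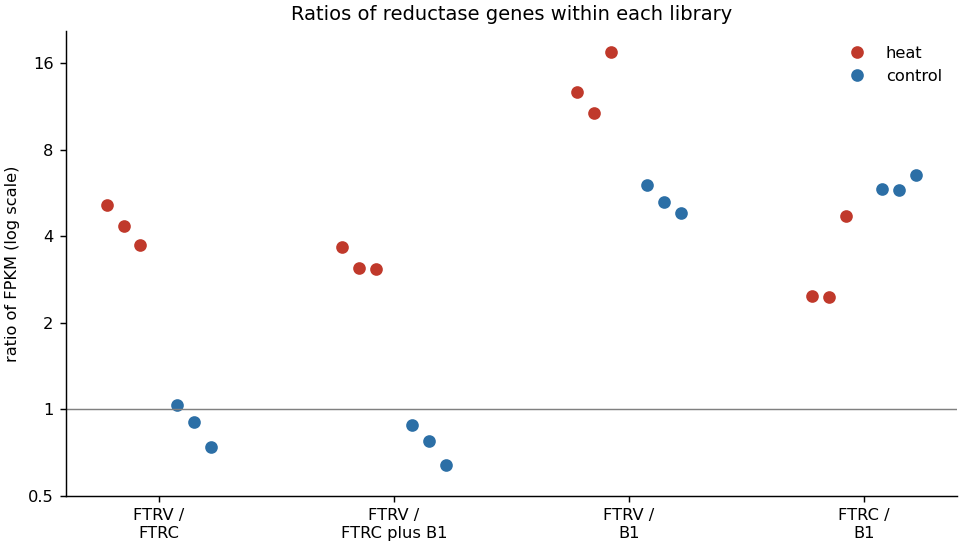
Ratios of FPKM within each library on a log2 axis, with heat libraries in red and control libraries in blue and a line at equal levels. FTRV over FTRC runs from 3.73 to 5.12 in heat and from 0.740 to 1.03 in control, and FTRC over B1 is lower in each heat library than in any control library.

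All 15 pair ratios among the 6 genes were compared in the same way, with Benjamini-Hochberg adjustment over the 15. In 13 pairs the groups did not overlap, each with an exact permutation p of 0.1 and an adjusted p of 0.115, so no pair could pass a threshold of 0.05 in this design. The 4 largest differences were in ratios that include FTRV. PETE over FTRV was 1.39, 1.84 and 2.11 in heat, against 15.6, 15.7 and 18.0 in control, a log2 difference of -3.23 (SE 0.19). FTRV over Trx-M was 0.944, 1.02 and 1.07 in heat, against 0.208, 0.173 and 0.179 in control, a log2 difference of 2.44 (SE 0.10). The variable chain and thioredoxin transcripts were close in level in each heat library, whereas the thioredoxin was several-fold higher in each control library.

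Overlap between the groups was found for the remaining 2 pairs. FTRC over Trx-M was 0.184, 0.235 and 0.288 in heat and 0.202, 0.191 and 0.243 in control, with a log2 difference of 0.14 (SE 0.21, exact permutation p = 0.7) that lay between -0.02 and 0.30 when single libraries were left out. PETE over ATPG was 1.45, 1.40 and 2.38 in heat and 2.32, 1.83 and 2.07 in control, with a log2 difference of -0.29 (SE 0.27, exact permutation p = 0.4), which was -0.15 without heat library 2 and -0.54 without heat library 3. These values do not show that the genes of a pair responded alike. PETE over FTRC was 7.13, 7.99 and 7.88 in heat, against 16.1, 14.2 and 13.3 in control, a log2 difference of -0.92 (SE 0.10).

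**Figure D4:**
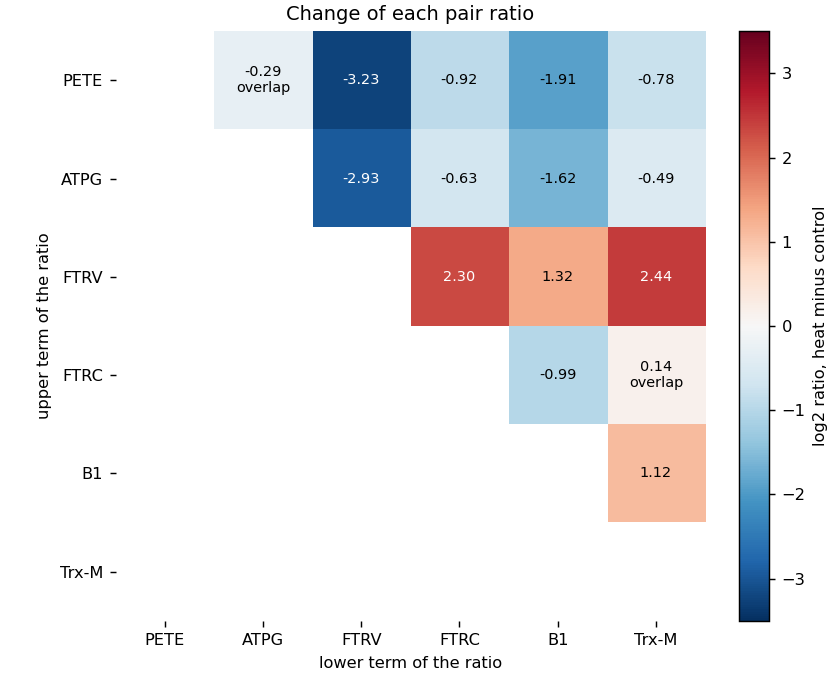
Change of the log2 ratio of each pair of genes, heat minus control, with the upper term of the ratio in rows and the lower term in columns; red is higher and blue lower in heat, and "overlap" marks pairs whose groups overlap. The 4 strongest colours are in the row and column of FTRV, from -3.23 against PETE to 2.44 against Trx-M.

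Other genes of the pathway were taken from a list of names matched to the gene table, and 13 of those tested are described here. Of these, 11 fell, 0 rose and 2 did not pass in the edgeR test, with a median log2 fold change of -1.58. Over all tested genes, 13.6% were lower and 11.6% higher and the median was 0.01, and of the 119 named genes beside the 6, these included, 58% were lower, with a median of -0.82. The list was drawn up with earlier results of these data known, so its counts are a description. The log2 fold changes ran from -3.62 to -0.71, so FTRV, at 0.60, lay above all 13 under TMM scaling, and under library size alone as well.

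Among the electron carriers, the 3 nuclear genes fell. PETF (LOC110805667), ferredoxin, which hands electrons to the reductase, had 171, 168 and 205 CPM in heat, against 592, 423 and 377 CPM in control (log2 fold change -1.36, SE 0.22, edgeR adjusted p = 0.00571). FNR (LOC110801208), the reductase that makes NADPH from reduced ferredoxin, averaged 520 ± 43.5 CPM in heat and 1146 ± 19.3 CPM in control, with a log2 fold change of -1.14. petC (LOC110796530), the Rieske iron-sulphur protein that passes electrons on within the cytochrome b6f complex, averaged 537 ± 88.6 CPM in heat and 1322 ± 163 CPM in control, with a log2 fold change of -1.30. PETE, at -2.62, had a lower fold change than these 3, and the difference between the genes was not tested. The plastid gene petB, with 54 to 214 reads in a library, did not pass (edgeR adjusted p = 0.260), and petD, with at most 4 reads, was not tested.

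In the ATP synthase, AtpC (LOC110777322), the γ subunit that carries the disulphide through which thioredoxin regulates the enzyme, fell. It had 350, 346 and 367 CPM in heat, against 985, 1090 and 1095 CPM in control (log2 fold change -1.58, SE 0.16, edgeR adjusted p = 0.00109). The plastid gene atpF had at most 27 reads in a library and did not pass (adjusted p = 0.119).

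Of genes matched by the names of enzymes known as thioredoxin targets, the 7 described here fell, with a median log2 fold change of -2.07, and 6 of them were lower under library size alone. gapA (LOC110805429) and gapB (LOC110790548), the subunits of the chloroplast glyceraldehyde phosphate dehydrogenase, had log2 fold changes of -3.62 and -3.04. SBPase (LOC110805656), sedoheptulose bisphosphatase, averaged 138 ± 30.9 CPM in heat and 614 ± 67.7 CPM in control (log2 fold change -2.15), and PRK (LOC110791203), phosphoribulokinase, 121 ± 4.85 CPM in heat and 435 ± 38.8 CPM in control (log2 fold change -1.85). The gene listed as mdh (LOC110802517) averaged 144 ± 22.4 CPM in heat and 297 ± 28.9 CPM in control (log2 fold change -1.04). It was taken here as NADP-MDH, which exports reducing power as malate, but the name mdh alone does not give this form. Of the 2 genes named FBPase, LOC110804252 had a log2 fold change of -2.07 and LOC110797013, also named Scytfbpy, one of -0.71 (edgeR adjusted p = 0.0413) that did not pass under library size alone (-0.26, adjusted p = 0.399). Apart from these names, the table does not say which form of the enzyme each encodes. The name Scytfbpy may stand for a cytosolic form, which is not known as a thioredoxin target, so LOC110797013 may not belong to these targets.

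**Figure D5:**
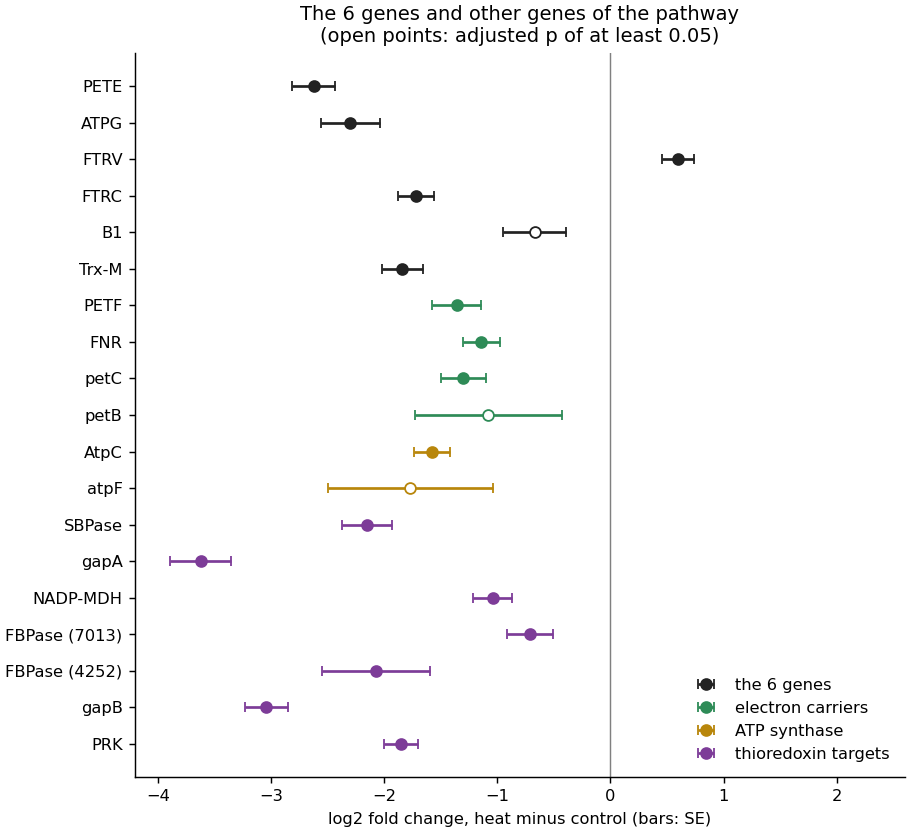
Log2 fold change with SE, heat minus control, of the 6 genes (black) and of 13 other tested genes of electron transport, ATP synthase and genes named for thioredoxin targets (colours), with open points where the edgeR adjusted p was at least 0.05. FTRV at 0.60 is the one point to the right of 0, and gapA at -3.62 lies farthest to the left.

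The genes with a reference name whose profile was nearest to each of the 6 were found by the root mean square difference of centred log2 CPM over the 6 libraries, among 119 tested genes. The closest match was between Trx-M and RPE (LOC110799621), a ribulose phosphate epimerase of the Calvin-Benson cycle, at 0.05. RPE averaged 129 ± 20.0 CPM in heat and 481 ± 56.0 CPM in control. FTRC was nearest to AtpC, at 0.14, and then to PSAG (LOC110775996), a subunit of photosystem I, at 0.16. PSAG was also second for Trx-M, at 0.11.

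PETE was nearest to TPIP1 (LOC110786512), a triose phosphate isomerase, at 0.19, and to CL35, a plastid ribosomal protein, at 0.25. ATPG was nearest to the chaperone HSC70-1, at 0.21, and to RPE, at 0.31. FTRV was nearest to prs4 (LOC110783966), a phosphoribosyl diphosphate synthase, at 0.13, with 75.1 ± 12.8 CPM in heat and 56.6 ± 2.72 CPM in control (log2 fold change 0.41, edgeR adjusted p = 0.105). Its second match was the proteasome subunit RPT1, at 0.22, whereas the nearest of the other genes studied here was B1, at 0.70. B1 was nearest to PSRP3 (LOC110786882), a plastid ribosomal protein, at 0.22, and to ACL1.1 (LOC110784631), an acyl carrier protein, at 0.23. The differences between the groups dominate such a measure, so genes with like fold changes come out as near.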

How the data were processed

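Read counts per gene were deposited by the authors as whole numbers without normalization, and FPKM values were computed by the authors. Per the submitters' processing notes the tools were DESeq 1.18.0, HTSeq 0.9.1 and HISAT2 2.0.4, with no roles stated. The genome build, annotation, strand use and treatment of reads matching several places were not given in the sources used here. In 23652 of 23652 genes checked, FPKM equalled the count divided by a fixed length and the library total, within 1e-06. Those lengths were 704 to 968 bp for the 6 genes. Names came from the BTI_SOV_V1 gene table, in which 25304 of 30732 NCBI numbers matched and no other gene overlapped any of the 6.

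Counts were tested with edgeR 4.0.16 (R 4.3.3): TMM scaling, filterByExpr, a quasi-likelihood fit with group as its only term, two-sided, Benjamini-Hochberg adjustment over 20145 genes, threshold 0.05. FPKM ratios were compared with exact two-sided permutation tests (scipy 1.17.1). DESeq2 1.42.0, limma 3.58.1, other scalings and filters, a replicate block and single left-out libraries were alternatives. The script was tested on simulated data of 19876 genes: 55.8% of 104 genes changed 4-fold and 2.3% of 87 changed 2-fold were recovered, and 5 of 19685 unchanged genes were called. Named genes were the 6, matches to the fixed pathway names, and for each of the 6 the 2 nearest named profiles. The genes, lists and tests were chosen with earlier results of these data known. A planned search for similar proteins was not run. An entry of the pathway list is not reported here, and its counts and medians leave it out. No library pair of a group agreed within sampling noise (chi-square per degree of freedom from 79.7 to 264).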

Additional observations from a re-analysis of the deposited data

How the results depend on the processing

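The calls of PETE, ATPG, FTRC and Trx-M, the absence of a call for B1 and all 6 signs held in each of 13 alternatives: library size alone, DESeq2, no filter on low counts, limma-voom, both limma fits on log2 FPKM, the replicate block and 6 left-out libraries. The FTRV call was lost with the replicate block (log2 fold change 0.59, adjusted p = 0.0897), where 0 of the 6 genes were higher, and without 4 of the libraries, with log2 fold changes from 0.55 to 0.70 over all left-out libraries and 0 or 1 gene higher. Of all tested genes, 1048 of 20145 were higher with the replicate block, and 864 of 20628 to 1924 of 20604 with single libraries left out. Same-numbered libraries had correlations of deviations of -0.133, -0.123 and -0.292, and libraries of unlike number had -0.176 to 0.283. With 3 libraries a group these values cannot show whether the numbers pair the samples, and the labels do not say. Over all genes, 5074 were called, 7759 under library size alone, 2628 with the replicate block and 2291 to 4355 with single libraries left out, the lowest without control library 2 and the next (2651) without heat library 1. The FTRV over FTRC difference was 2.27 to 2.30 with counts, a pseudocount of 1 or the replicate block (2.30, exact sign-flip p = 0.25). For B1 the spread between heat libraries (coefficient of variation 33.5%) exceeded the counting error of at most 5.88%, so a small change of B1 may go undetected. The simulated recovery of 2-fold changes was low, but far fewer genes were changed there than were called here. Adjustment over all genes is stricter in that setting, so the recovery does not measure what the tests of these data can detect.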
